A study of Mus musculus with 16 samples.

Results

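The 38 genes described here encode proteins of the G2 phase and of mitosis, from the cyclins and kinases that start chromosome segregation to the proteins that part the daughter cells. They were taken by symbol from a table of 47069 mouse genes in 16 mRNA-seq libraries of liver and liver tumour, and all 38 symbols were found, each on 1 row. All animals had received diethylnitrosamine (DEN), a carcinogen that hepatocytes activate and that induces hepatocellular carcinoma. The diets were rich in fructose or, as the control, in cornstarch, a glucose polymer. The 6 groups were tumours at 9 months under fructose (n = 3) and cornstarch (n = 2), livers at 9 months under fructose (n = 3) and cornstarch (n = 3), and livers at 5 months under fructose (n = 2) and cornstarch (n = 3). DEN was thus common to all groups, and none of them shows what the carcinogen did. A strain, a genotype, the sex and whether each library came from its own mouse are not given in the labels used here, so the p-values cover the variation among these libraries, which may be technical in part.

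Entry into mitosis is driven by Cdk1, the cyclin-dependent kinase bound by the cyclins A2, B1 and B2, and by the phosphatase Cdc25c that activates it. The spindle is then built by motors and microtubule-binding proteins, the kinetochores attach the chromosomes to it, and the spindle checkpoint (Bub1, Bub1b, Bub3, Mad2l1, Ttk) holds the anaphase promoting complex back until attachment is complete. Most of these genes are transcribed late in the cell cycle under the DREAM and MuvB complexes, NF-Y and Foxm1, and their RNA is low in resting cells. Adult hepatocytes seldom divide unless the liver is injured, and blood cell precursors, immune cells and stromal cells in a liver sample carry the same transcripts when they divide.

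A pair of sequence elements is known in the promoters of this class: the cell cycle genes homology region (CHR), read here as the letters TTTGAA or TTCGAA on either strand, and the CCAAT box of NF-Y, read on either strand. RefSeq promoter windows on GRCm38.p6, of 250 bases before to 50 bases after a transcription start, were at hand for 31 of the 38 genes in 35 windows, and not for Tpx2, Cdc25c, Foxm1, Pbk, Aurkb, Kif20a and Ccna2. CHR letters stood in the windows of 23 of the 31 genes (74.2%), against 21.7% of all 27025 genes and 19.2% of all 32851 windows. They lay within 50 bases of the start in 71.0% of the 31 genes and 6.1% of all genes. CCAAT letters stood in 77.4% of the 31 genes and 41.1% of all genes, and at least 2 of them in 54.8% and 13.3%. Both elements occurred together in 67.7% of the 31 genes and 8.6% of all. The E2F letters GGCGGGAA or GGCGCGAA, on either strand, were found in 0 of the 31 genes and in 3.1% of all genes. A match of letters is a description of the window and not a binding site. Of the sequences below, each of the 150 bases before a start and with CHR and CCAAT letters in capitals, those of Top2a, Cdk1, Cdc20 and Ube2c come from windows with CHR letters within 50 bases of the start and at least 2 CCAAT matches, a layout found in 45.2% of the 31 genes and 0.8% of all genes. Those of Psrc1 and Bub3 are shown because the RNA of these genes followed patterns of its own across the groups. The window of Bub3 shown here has the same layout, and that of Psrc1 does not, although a second window of Psrc1 does.
Top2a, chr11:99024190-99024339, minus strand: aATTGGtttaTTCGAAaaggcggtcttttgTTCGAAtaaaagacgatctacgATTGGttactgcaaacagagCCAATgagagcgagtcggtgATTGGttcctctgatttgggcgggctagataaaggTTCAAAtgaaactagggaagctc
Cdk1, chr10:69352913-69353062, minus strand: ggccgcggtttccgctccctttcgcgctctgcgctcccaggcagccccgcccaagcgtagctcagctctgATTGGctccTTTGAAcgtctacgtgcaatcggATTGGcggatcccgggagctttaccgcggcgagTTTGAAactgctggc
Cdc20, chr4:118437344-118437493, minus strand: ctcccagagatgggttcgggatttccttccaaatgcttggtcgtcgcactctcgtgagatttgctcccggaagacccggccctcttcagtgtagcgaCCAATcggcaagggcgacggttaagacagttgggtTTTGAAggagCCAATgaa
Ube2c, chr2:164769779-164769928, plus strand: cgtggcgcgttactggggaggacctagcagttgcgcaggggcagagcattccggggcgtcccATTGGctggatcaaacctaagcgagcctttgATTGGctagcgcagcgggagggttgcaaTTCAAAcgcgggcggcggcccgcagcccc
Psrc1, chr3:108383688-108383837, plus strand: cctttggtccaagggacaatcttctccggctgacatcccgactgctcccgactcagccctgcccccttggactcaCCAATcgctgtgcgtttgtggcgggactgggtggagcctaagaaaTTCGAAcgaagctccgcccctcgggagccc
Bub3, chr7:131560220-131560369, plus strand: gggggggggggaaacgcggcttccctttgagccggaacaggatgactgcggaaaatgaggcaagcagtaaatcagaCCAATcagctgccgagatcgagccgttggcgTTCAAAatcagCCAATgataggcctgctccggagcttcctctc
The stretch of Top2a held 3 CHR and 4 CCAAT matches and that of Cdk1 held 2 of each. Those of Cdc20 and Ube2c held 1 CHR and 2 CCAAT matches each. The stretch of Psrc1 held 1 of each, and that of Bub3 held 1 CHR and 2 CCAAT matches.

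Values below are the deposited normalised counts, in which each library was divided by 1 factor, and 1 read is worth 0.453 to 1.54 units. Recovered depth was 11232461 to 38377674 reads per library. Differences are between group means of log2(normalised count + 1), which understates the change of low genes, and a gene was called at a limma p-value below 0.05 after Benjamini-Hochberg adjustment over all genes tested. Replicate 1 of each 5-month group expressed Xist and lacked Y-linked RNA, unlike the other 14 libraries. Of those 14, 9-month cornstarch liver replicate 3 had the highest Xist level, at 226 against 0 to 25.8 in the other 13, and the lowest level of the Y-linked Ddx3y, at 594. The tumours held the oncofetal RNAs Afp (means of 3159 under fructose and 8612 under cornstarch) and Gpc3 (6438 under fructose and 6241 under cornstarch), whereas the 9-month livers averaged 245 and 225 for Afp and 245 and 226 for Gpc3 under fructose and cornstarch. Of 10 liver tumour markers 7 were called higher in tumours, and between diets at 5 months 3 were called higher under fructose (Lcn2, Golm1 and Scd2), at summed levels of 38576 to 71922 under fructose and 515 to 1434 under cornstarch, of which Lcn2 averaged 53063 and 488. Hepatocyte markers were present in every library, with a summed level of 12 genes of 1450510 to 4300383.

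**Figure D1:**
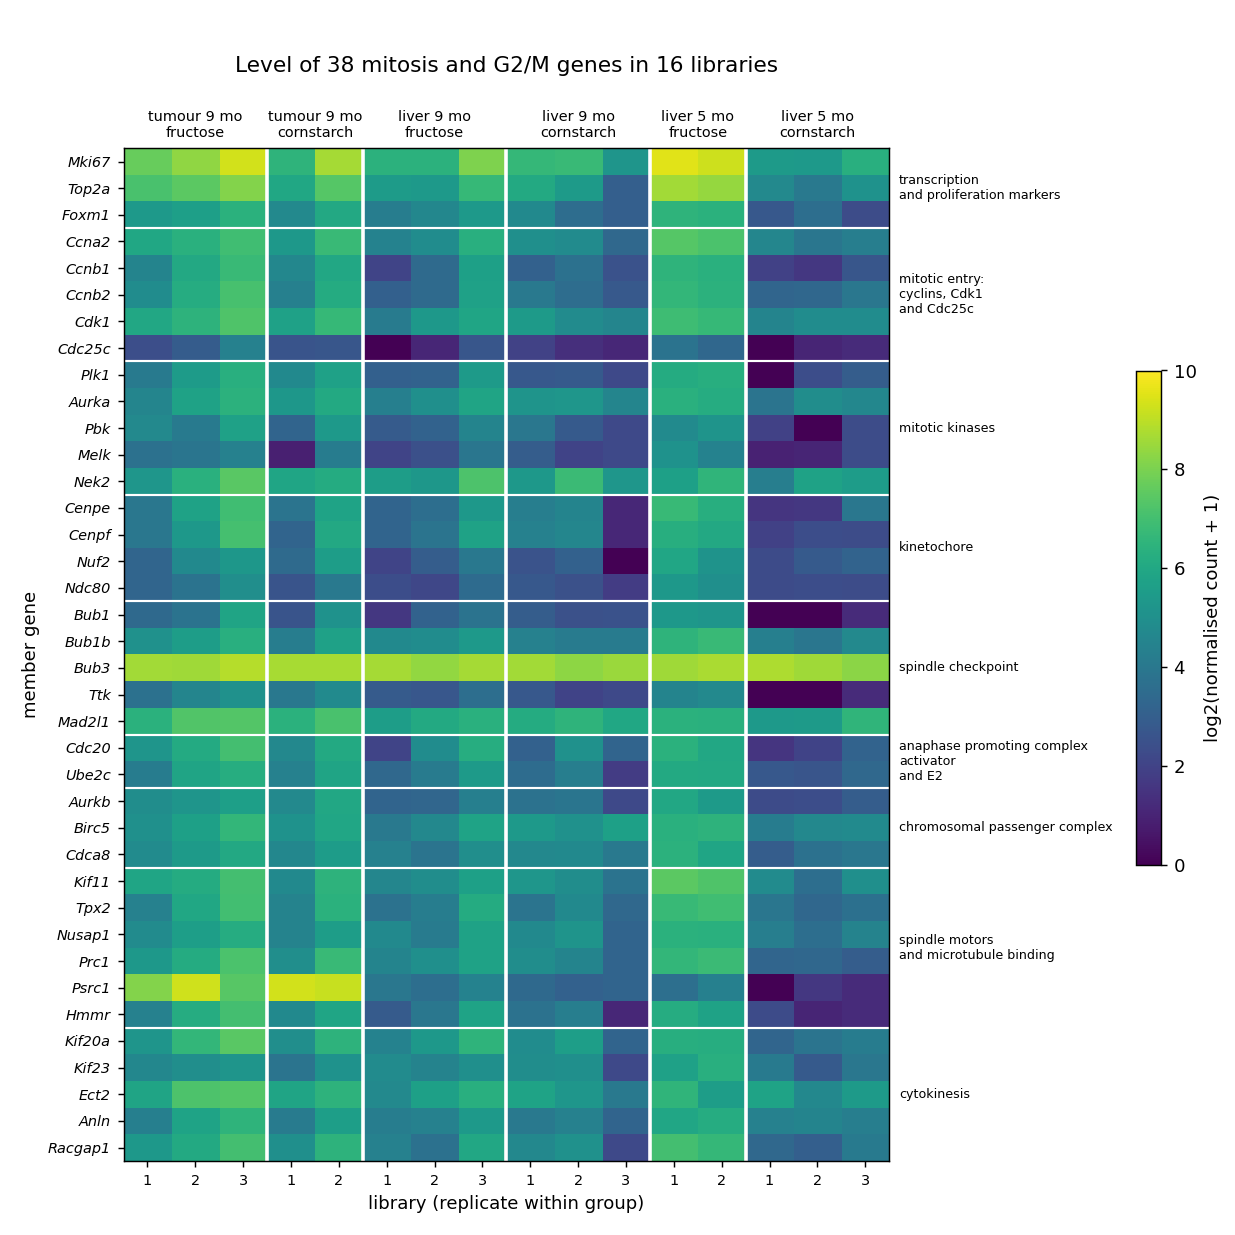
Heat map of log2(normalised count + 1) for the 38 genes (rows, by role) in the 16 libraries (columns, by group). The 5-month fructose livers and most tumours are bright across nearly all rows, the 5-month cornstarch livers are dark, Bub3 is even throughout and Psrc1 is bright in the 5 tumours alone.

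Averaged over the 38 genes, log2(normalised count + 1) was 6.30 and 6.19 in the 5-month fructose livers, and 3.11, 3.15 and 3.71 in the 5-month cornstarch livers. It was 5.01, 5.86 and 6.61 in the fructose tumours and 4.71 and 6.06 in the cornstarch tumours. The 9-month fructose livers stood at 3.84, 4.25 and 5.50, and the 9-month cornstarch livers at 4.39, 4.40 and 3.14. The 5-month fructose livers and 3 of the 5 tumours formed the top of this order, and the 9-month groups overlapped. The highest group mean lay in the 5-month fructose livers for 29 genes, in the fructose tumours for 8 and in the cornstarch tumours for 1 (Psrc1). The lowest lay in the 5-month cornstarch livers for 32 genes and in the 9-month cornstarch livers for 6. Per kilobase of exon, which allows genes to be compared, the highest mean levels in the 5-month fructose livers were 67.6 for Mki67, 59.4 for Ccnb2 and 56.9 for Bub3. In the 5-month cornstarch livers Bub3 stood at 53.2 per kilobase and the next gene, Aurka, at 8.70. In a bulk sample, more dividing cells and more of these transcripts in each dividing cell cannot be told apart.

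The comparison of diets at 5 months asked how the DEN-treated liver differed between diets at the age from which no tumours were sampled. Nearly the whole mitotic programme was higher under fructose: 31 of the 38 genes were called higher and 0 lower, where 10.3% of the 14317 genes tested were called higher and 4.48% lower. The median log2 difference over the 38 genes was 3.03, an 8.15-fold higher level, against -0.01 over all genes tested. All 38 differences were positive, and in 34 genes both fructose libraries lay above all 3 cornstarch libraries, where 27.1% of all genes tested did so. The values of 6 genes (Bub1, Plk1, Ttk, Nuf2, Ndc80 and Melk) reached the filter of 10 in 2 libraries through the fructose livers alone, so that they could be tested only if fructose was high. Of the 31 other genes tested 26 were called. Cdc25c was not tested, and Kif23, Nuf2, Mad2l1, Nek2, Ect2 and Bub3 were tested and not called.

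Among the proliferation markers, Mki67, which encodes Ki-67 (ENSMUSG00000031004, chromosome 7, 135689784 to 135716361 on GRCm38), stood at 757 and 603 with fructose and 42.95, 40.1 and 78.6 with cornstarch. It was 12.9-fold higher (log2 difference 3.69, SE 0.58, limma adjusted p = 0.00265). Top2a, the topoisomerase that disentangles sister chromatids, stood at 388 and 343 under fructose and 24.8, 15.4 and 33.3 under cornstarch. The groups were far apart in both genes, and Top2a was 14.99-fold higher (log2 difference 3.91, SE 0.75, limma adjusted p = 0.00718). Foxm1, the transcription factor of the G2/M programme, stood at 88.97 and 83.4 under fructose and 5.73, 11.3 and 3.99 under cornstarch, a log2 difference of 3.55 (SE 0.56, limma adjusted p = 0.0027).

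All 4 tested genes of mitotic entry were called higher at 5 months, with a median log2 difference of 2.99 over the 5 genes of the role. Cdk1 stood at 117 and 103 with fructose and 21.95, 27.7 and 27.96 with cornstarch (log2 difference 2.05, SE 0.45, limma adjusted p = 0.0132). Its partner Ccnb1, cyclin B1, stood at 90.4 and 81.1 under fructose and 2.86, 2.05 and 5.33 under cornstarch (log2 difference 4.36, SE 0.85, limma adjusted p = 0.00745). The kinase subunit was thus well above 0 in all cornstarch livers, while cyclin B1 was near the limit of detection there with 9 reads in 3 libraries. Cdc25c held 17 reads with fructose and 2 with cornstarch, a ratio of 15.1 with a 95% exact counting interval of 3.58 to 135, which covers counting error only.

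Of the 5 mitotic kinases 4 were called higher, Nek2 being the exception. Plk1, the polo kinase that matures centrosomes and spindle poles, stood at 70.01 and 76.5 with fructose and 0, 4.11 and 6.66 with cornstarch (log2 difference 4.45, SE 0.89, limma adjusted p = 0.00852). In the spindle checkpoint, Bub1b, which encodes the inhibitor BubR1, had the smallest p of the 38 genes, with 90.4 and 109 under fructose against 19.1, 14.4 and 25.3 under cornstarch (log2 difference 2.32, SE 0.31, limma adjusted p = 0.00119). Ttk, the Mps1 kinase that starts the checkpoint signal, held 37 reads with fructose and 1 with cornstarch, and stood at 21.9 and 25.1 against 0, 0 and 1.33. The checkpoint kinase Bub1 held 59 reads with fructose and 1 with cornstarch, and stood at 39.4 and 36.6 against 0, 0 and 1.33. Their ratios of 65.7 and 105 had 95% exact counting intervals of 11.1 to 2664 and 18.1 to 4208. These cover counting error only, not variation between libraries, and are too wide to give the size. Both were called by limma, with adjusted p of 0.00132 and 0.00149, among the genes that the fructose values alone brought into the test.

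Bub3, the adaptor that brings Bub1 and BubR1 to kinetochores, stood apart from its partners. It stood at 378 and 419 with fructose and 441, 376 and 302 with cornstarch, with overlapping groups (log2 difference 0.11, SE 0.18, limma adjusted p = 0.73). This p does not show that the levels were equal. Mad2l1, the checkpoint protein that binds Cdc20, had a log2 difference of 0.58 (SE 0.36) and was not called.

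All 3 chromosomal passenger genes were called. Birc5, which encodes survivin, stood at 80.2 and 86.8 with fructose and 17.2, 24.7 and 26.6 with cornstarch (log2 difference 1.85, SE 0.44, limma adjusted p = 0.019). Aurkb, the kinase of this complex, stood at 62.7 and 42.3 under fructose and 3.82, 4.11 and 6.66 under cornstarch (log2 difference 3.20, SE 0.57). At the kinetochore 3 of 4 genes were called, Nuf2 missing the threshold, with Ndc80, a microtubule-binding subunit, at 39.4 and 30.8 against 3.82, 4.11 and 3.99. Both factors that act with the anaphase promoting complex, the activator Cdc20 and the ubiquitin-conjugating enzyme Ube2c, were called higher.

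All 6 spindle motor and microtubule-binding genes were called at 5 months. Prc1, which bundles the microtubules of the central spindle, stood at 97.7 and 112 with fructose and 8.59, 9.24 and 6.66 with cornstarch (log2 difference 3.54, SE 0.50, limma adjusted p = 0.00159). Kif11, the motor that pushes the spindle poles apart, stood at 176 and 151 under fructose and 27.7, 11.3 and 30.6 under cornstarch (log2 difference 2.88, SE 0.52). Psrc1, a microtubule-binding protein of the spindle (ENSMUSG00000068744, chromosome 3, 108383839 to 108388231), stood at 11.7 and 19.4 against 0, 2.05 and 1.33 (log2 difference 3.06, SE 0.54, limma adjusted p = 0.00466), from 25 and 3 reads, a ratio of 14.8 with a 95% exact counting interval of 4.52 to 76.6. Of the 5 cytokinesis genes Kif20a, Anln and Racgap1 were called and Kif23 and Ect2 were not.

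**Figure D2:**
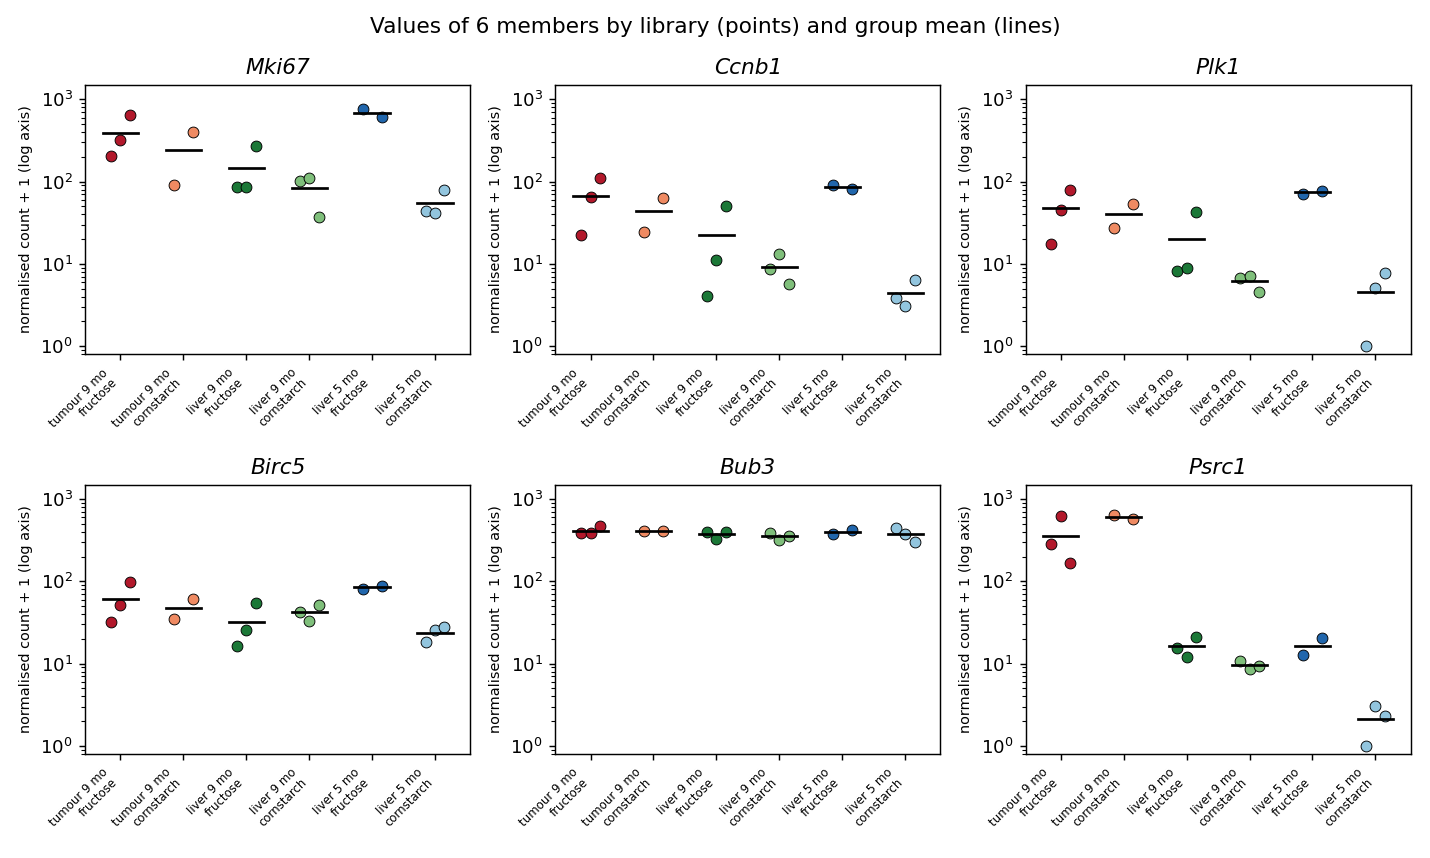
Normalised count plus 1 on a log axis for 6 genes, by library (points) and group mean (lines), with tumours on the left and 5-month livers on the right. Mki67, Ccnb1, Plk1 and Birc5 are higher in both 5-month fructose livers than in all other livers. Among the tumours these genes vary, and the lowest tumour of each lies inside the range of the other livers. Bub3 stays between 302 and 471 normalised counts in all 16 libraries, and Psrc1 is above 166 in all 5 tumours and at most 20.4 in the livers.

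The count of 31 rested on both 5-month fructose livers. Without replicate 1 of that group 11 of the 38 genes were called and without replicate 2 only 8, at medians of 2.91 and 3.08, and without the 2 Xist-positive libraries that lack Y-linked RNA 7 were called at a median of 2.92. Each of these fits leaves 1 fructose library at 5 months, which is assumed to vary like the other groups, so that the test has less to rest on. The direction of the median was the same in each. By scaling, the genes called among all 14317 split into 1478 higher and 641 lower as deposited, 1226 and 1071 with quantile normalisation, 1305 and 883 with TMM factors and 1333 and 938 with the upper quartile. Of the 38 genes 26, 31 and 31 were called higher under these 3 scalings and 0 lower.

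Markers of granulocyte precursors moved with the 38 genes at 5 months, and those of red cell precursors did so less evenly. Of 9 granulocyte precursor genes (Mpo, Elane, Prtn3 and others) 8 were called higher, and their summed level was 8926 to 9546 under fructose against 64.9 to 109.9 under cornstarch, where Ctsg, Ms4a3 and Fcnb were at 0 in all libraries. All 12 tested mature neutrophil genes were called higher (58730 to 89399 summed under fructose, against 213 to 1099 under cornstarch). On average most of these sums came from Lcn2, whose means are given above and which is also on the list of liver tumour markers. Of 11 tested red cell precursor genes 6 were called higher and 1 lower (3211 to 4957 summed under fructose, against 870.5 to 3037 under cornstarch), with Gata1, Rhag, Rhd and Hemgn at 0 in all cornstarch livers. Of megakaryocyte genes 4 of 5 tested were called higher, of macrophage genes 5 of 12, of stellate cell genes 6 of 10, of endothelial genes 2 of 9, of bile duct genes 1 of 7, of B and plasma cell genes 2 of 8, and of hepatocyte genes 0 of 12. Of 10 tested T and NK cell genes 1 was called higher and 1 lower. The part of these cells in the level of the mitotic genes was not tested.

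**Figure D3:**
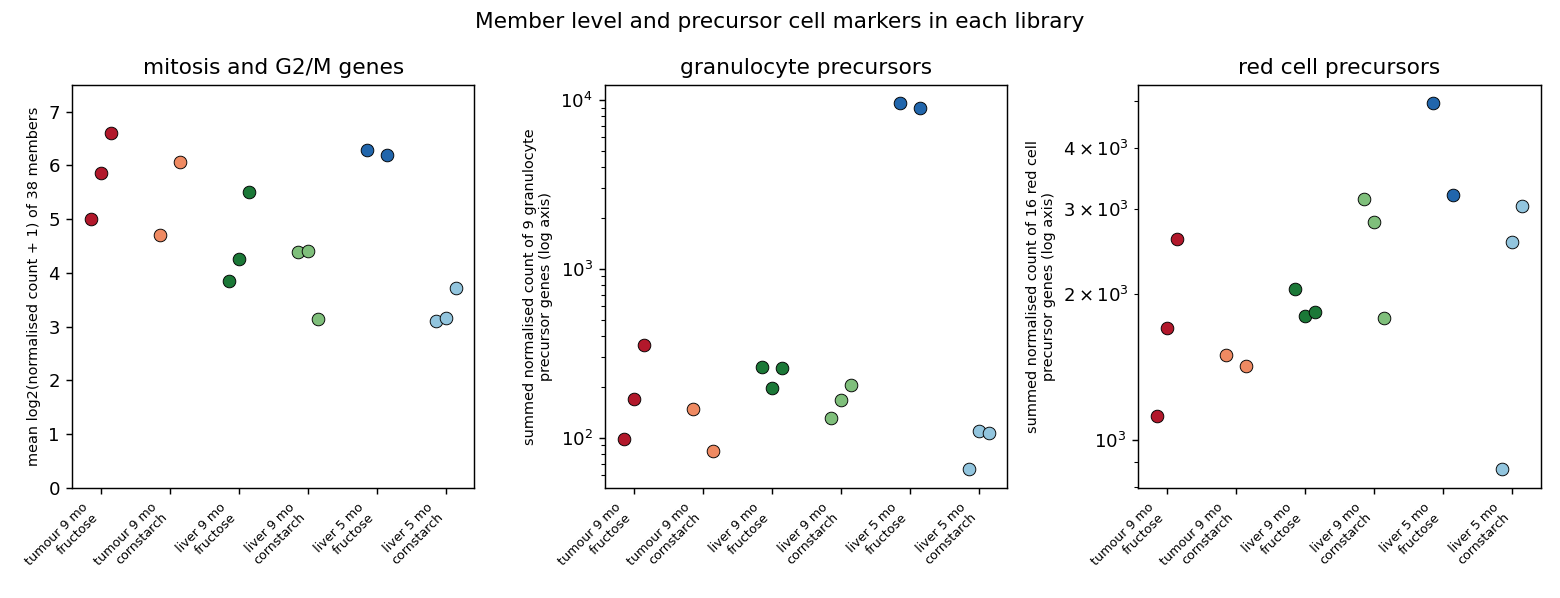
Mean log2(normalised count + 1) of the 38 genes (left) and summed normalised counts of 9 granulocyte precursor genes and 16 red cell precursor genes (log axes) in each library. The 5-month fructose livers are high in the first panel and in the granulocyte precursor panel. In the red cell precursor panel they stand at 4957 and 3211, where the other libraries reach 3149. In the first panel the tumours lie between 4.71 and 6.61 and the 9-month livers between 3.14 and 5.50. In the granulocyte precursor panel the tumours lie between 82.9 and 353 and the 9-month livers between 130.2 and 263.

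Other cell cycle genes gave a graded picture at 5 months. Of 74 tested other mitosis genes 39 were called higher and 0 lower, led by the spindle gene Spag5 (61.5 under fructose against 4.54 under cornstarch, log2 difference 3.55, SE 0.44, limma adjusted p = 0.000897), with Incenp, the scaffold of the chromosomal passenger complex, at 134 against 31.5 and the condensin subunit gene Ncapd2 at 252 against 76.1. Of 28 DNA replication genes 11 were called higher and 0 lower, led by Uhrf1, which guides the maintenance of DNA methylation, at 133 against 9.16 and the helicase subunit genes Mcm6 (4.17-fold) and Mcm2 (2.94-fold). Of 15 other genes of the anaphase promoting complex, its core subunits and the activator Fzr1, 0 were called, at a median log2 difference of 0.08. Of 22 DREAM, MuvB, Rb, E2F and NF-Y regulators 3 were called higher (E2f2, Rbl1 and the NF-Y subunit gene Nfya) and 1 lower, and of 8 G1 cyclins and Cdks only Ccnd3 was called higher. Of 18 cell cycle inhibitors 3 were called higher and 1 lower: the anti-proliferative Btg2 was 5.88-fold higher, Cdkn2d 3.19-fold higher, and Tob1 lower (log2 difference -0.92). Cdkn1a, the p53 target that encodes p21, averaged 1596 under fructose and 320.4 under cornstarch and was not called (log2 difference 2.87, SE 0.92, limma adjusted p = 0.0619).

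At 9 months the same comparison of diets in liver gave 0 calls among the 37 tested genes, where 2.54% of all genes tested were called, and 1 of them, Bub1b, had an unadjusted p below 0.05. With edgeR and DESeq2 0 of the 37 were called as well. Over all genes tested edgeR called 360 higher and 27 lower, and DESeq2 743 and 226. The median log2 difference was 0.66, with 34 positive and 4 negative differences and 3 genes (Bub1b, Plk1 and Psrc1) whose groups did not overlap, where 12.9% of all genes tested were higher without overlap. Mki67 stood at 84.3, 83.99 and 267 with fructose and 100.3, 109 and 35.7 with cornstarch (log2 difference 0.75, SE 0.52). Ccnb1 stood at 3.12, 10.1 and 50.3 under fructose and 7.71, 12.3 and 4.76 under cornstarch (0.60, SE 0.76). In both genes fructose replicate 3 was the highest and the groups overlapped. Plk1 stood at 7.28, 7.84 and 42.1 against 5.79, 6.15 and 3.57 (1.28, SE 0.80), Birc5 at 15.6, 24.6 and 54.4 against 41.5, 32.3 and 50.03 (-0.54, SE 0.40) and Bub3 at 396, 328 and 398 against 386, 315 and 359 (0.08, SE 0.16). The log2 differences of Top2a, Foxm1, Cdk1 and Psrc1 were 1.0, 0.95, 0.16 and 0.75, with SEs of 0.67, 0.50, 0.40 and 0.48, and the limma adjusted p of the 37 genes lay between 0.163 and 0.966.

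Replicate 3 of the 9-month fructose livers was the highest of the 6 livers in 37 of the 38 genes, and replicate 3 of the cornstarch livers the lowest in 25. This fructose library was also the deepest of the series, at 38377674 reads, and the part of depth in its values was not tested. Without it the median over the 38 genes was 0.08, and Cdk1 and Ccnb1 had log2 differences of -0.21 and -0.37. Without cornstarch replicate 3, the library with the higher Xist level, the median was 0.125, against 0.66 with all libraries. Granulocyte precursor genes summed to 263, 196 and 257 in the 9-month livers under fructose and 130.2, 167 and 205 under cornstarch. Of the other cell cycle lists 0 genes were called between the diets at this age, and Cdkn1a averaged 579 under fructose and 117 under cornstarch (log2 difference 2.05, SE 0.82, limma adjusted p = 0.197).

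The diet effect at 9 months minus that at 5 months was negative in all 38 genes, with a median log2 difference of -2.50 against -0.02 over all genes tested. Of the 37 genes tested 1 was called, Bub1, where 0.691% of all genes tested were called in that direction. Bub1 stood at 2.08, 7.84 and 13.1 in 9-month fructose livers and 6.75, 4.61 and 4.76 in 9-month cornstarch livers, beside the 5-month values given above (log2 difference -4.67, SE 0.90, limma adjusted p = 0.0498). Bub1 passed the filter on low values only through the 5-month fructose livers, so that it could be tested only because they were high. An unadjusted p below 0.05 was reached by 28 genes. The difference was -2.94 for Mki67, -2.91 for Top2a, -2.60 for Foxm1, -1.89 for Cdk1, -3.76 for Ccnb1, -3.17 for Plk1 and -2.39 for Birc5, with SEs of 0.77, 1.01, 0.75, 0.60, 1.14, 1.19 and 0.59 and limma adjusted p of 0.12 to 0.333. It was -2.32 for Psrc1 (SE 0.73) and -0.03 for Bub3 (SE 0.24). The call of Bub1 was lost in 18 of the 24 alternative fits, at limma, edgeR or DESeq2 adjusted p of 0.00995 to 0.325 over all of them, and in both fits without 1 of the 5-month fructose livers.

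Between the ages, the fructose livers of 9 months lay below those of 5 months. All 38 log2 differences were negative, at a median of -1.76 against -0.01 over all genes tested, and in 31 genes every 9-month library lay below both 5-month libraries, where 22.3% of all genes tested did so. Of the 37 genes tested 4 were called lower, where 2.81% of all genes tested were: Bub1b, Ndc80, Kif11 and Mki67. Bub1b stood at 26.01, 28 and 40.3 at 9 months and 90.4 and 109 at 5 months (log2 difference -1.65, SE 0.31, limma adjusted p = 0.0172), and Ndc80 at 4.16, 3.36 and 10.4 against 39.4 and 30.8 (log2 difference -2.50, SE 0.52, limma adjusted p = 0.0266). Kif11 stood at 22.9, 29.1 and 50.8 at 9 months against 176 and 151 at 5 months (log2 difference -2.30, SE 0.52, limma adjusted p = 0.0386). Mki67 had a log2 difference of -2.44 (SE 0.58, limma adjusted p = 0.0468), and 26 genes had an unadjusted p below 0.05. Ndc80 passed the filter on low values only through the 5-month fructose livers, and the other 3 passed it without them.

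The remaining fixed genes were not called between the ages under fructose. Their log2 differences were -2.67 (SE 0.75) for Top2a, -1.71 (SE 0.56) for Foxm1, -1.68 (SE 0.45) for Cdk1, -2.71 (SE 0.85) for Ccnb1, -2.34 (SE 0.89) for Plk1 and -1.56 (SE 0.44) for Birc5, with limma adjusted p of 0.0734 to 0.2. Bub3 and Psrc1 differed by -0.09 (SE 0.18) and -0.01 (SE 0.54). The count of 4 was 0 without either 5-month fructose liver and 0 without 9-month fructose replicate 2, 1 without replicate 1, 10 without replicate 3, 2 and 9 without 9-month cornstarch replicates 2 and 3, and 0 without the 2 Xist-positive libraries. The fits without a 5-month fructose liver or without the Xist-positive libraries leave 1 library in that group. Over the same ages 8 of 9 granulocyte precursor genes were called lower, summed to 196 to 263 at 9 months and 8926 to 9546 at 5 months, and 11 of 12 mature neutrophil genes were called lower. Their part in the difference of the mitotic genes was not tested. Of 74 other mitosis genes 7 were called lower and 0 higher, led by Ncapd2 (-1.56), Troap (-3.69) and Spag5 (-1.95), and of 28 DNA replication genes 4 were called lower, led by Mcm6 (-1.48), Uhrf1 (-2.45) and Cdc6 (-2.92). Of the 18 inhibitors Btg2 (-2.34), Cdkn2d (-1.37) and Gadd45g (-3.26) were called lower, and Cdkn1a had a log2 difference of -1.76 (SE 0.92).

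Under cornstarch 0 of the 37 genes were called between 9 and 5 months, where 0.0% of all genes tested were called and 2051 had an unadjusted p below 0.05. Among the 37 genes 6 had such a p, and edgeR and DESeq2 called 0 of them. Over all genes tested edgeR called 0, and DESeq2 called 91 higher and 74 lower. The median log2 difference was 0.57, with 32 positive and 6 negative differences. It was 0.50 for Mki67, 0.24 for Top2a, 0.88 for Foxm1, 0.21 for Cdk1, 1.05 for Ccnb1 and 0.83 for Plk1, each with an SE of 0.40 to 0.80, 0.83 for Birc5 (SE 0.40) and -0.07 for Bub3 (SE 0.16). Psrc1 stood at 9.64, 7.68 and 8.34 at 9 months and 0, 2.05 and 1.33 at 5 months (log2 difference 2.31, SE 0.48, limma adjusted p = 0.208), so that its groups did not overlap, at levels of a few reads. Groups did not overlap in 5 of the 38 genes, where 9.18% of all genes tested were higher without overlap.

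**Figure D4:**
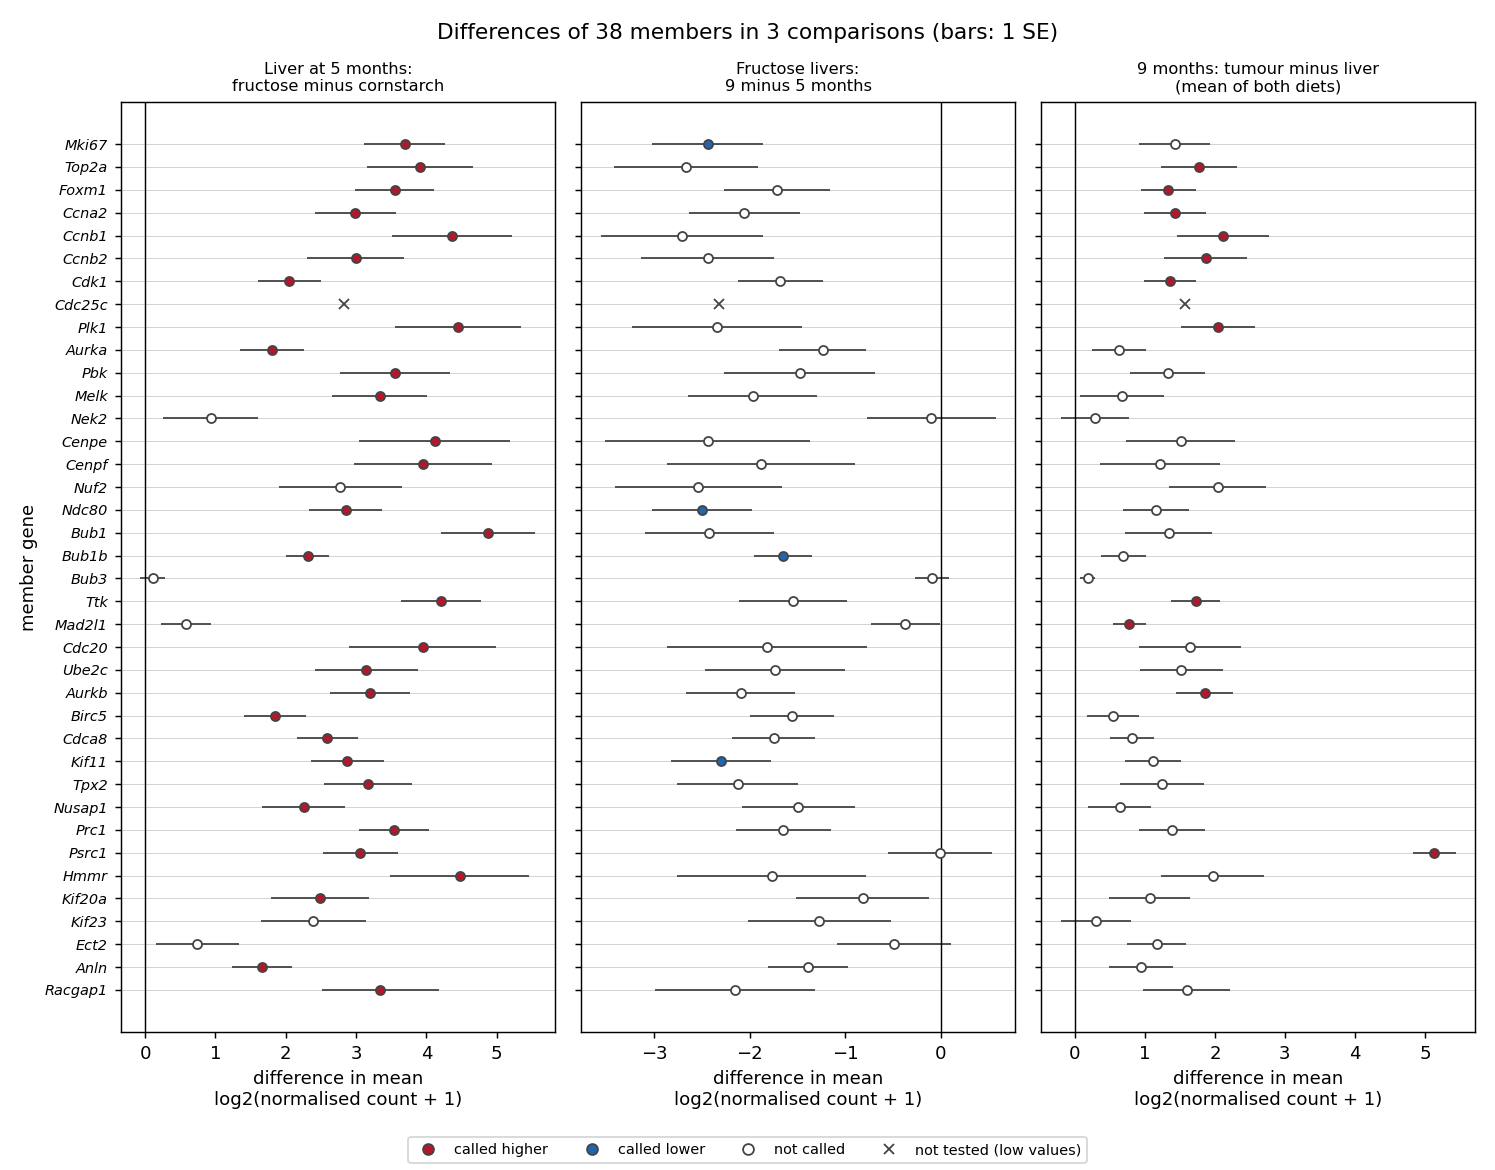
Difference in mean log2(normalised count + 1) with its SE for each of the 38 genes in 3 comparisons: diet at 5 months, age under fructose and tumour minus liver. Filled points are called genes (31 higher, 4 lower and 11 higher), open points are not called, and a cross marks Cdc25c, which was not tested.

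The comparison of tumour with liver at 9 months, averaged over both diets, asked how the mitotic programme of the tumour tissue differed from that of liver of the same age. Of the 37 genes tested 11 were called higher and 0 lower, where 13.4% of the 14503 genes tested were called higher and 10.5% lower. All 38 differences were positive, at a median of 1.34 or 2.52-fold, against -0.01 over all genes tested, and 23 genes had an unadjusted p below 0.05. The called genes were Psrc1, Ttk, Aurkb, Plk1, Cdk1, Foxm1, Top2a, Mad2l1, Ccnb1, Ccna2 and Ccnb2. They included all 4 tested genes of mitotic entry, 2 of 3 proliferation markers, 2 of 5 checkpoint genes, and 1 each of the kinases, the passenger complex and the spindle group. Of the kinetochore, cytokinesis and anaphase promoting complex genes 0 were called, which does not mean that they rose less. Their log2 differences ran from 0.305 (SE 0.50) for Kif23 to 2.04 (SE 0.69) for Nuf2. Those of the called genes ran from 0.78 (SE 0.24) for Mad2l1 to 5.13 (SE 0.31) for Psrc1. Of the 11 genes 10 were also called in the diet comparison at 5 months, where 31 of all 37 tested genes were called. The overlap is near that share and sets these 11 genes apart from the rest in no way. In at least 1 of the 2 comparisons 32 genes were called.

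Psrc1 stood far apart from the other genes in tumours. It stood at 284, 623 and 166 in the fructose tumours and 635 and 571 in the cornstarch tumours, against 14.6, 11.2 and 20.4 in 9-month fructose livers and 9.64, 7.68 and 8.34 in 9-month cornstarch livers. Every tumour lay above every liver of either age, and its mean levels per kilobase of exon, 106 in fructose tumours and 179 in cornstarch tumours, were the highest of the 38 genes there, ahead of Bub3 at 58.9 and 58.8. The log2 difference was 5.13 or 35.1-fold (SE 0.31, limma adjusted p = 3.8e-05), and the 24 alternatives gave 4.73 to 5.36, all of them called. Its values did not follow the other genes among tumours: fructose replicate 3, the highest tumour in 35 of the 38 genes, was the lowest of the 5 for Psrc1. Of the neighbouring genes on chromosome 3, looked at after these values were seen, Celsr2 (108390851 to 108415552, minus strand) had a log2 difference of 2.22 (SE 0.62, limma adjusted p = 0.0267), Sort1 (108284082 to 108361511, plus strand) 1.25 (SE 0.36, 0.0287) and Sars (108424865 to 108445209, minus strand) 0.68 (SE 0.17, 0.0149). Mybphl (108364911 to 108380057, plus strand), between Sort1 and Psrc1, was near or at 0 throughout. It stood at 0.87, 0 and 0 in fructose tumours, 1.68 and 1.82 in cornstarch tumours and 0 in every liver. Celsr2 stood at 75.6, 12.1 and 42.6 in fructose tumours and 28.6 and 275 in cornstarch tumours, against 4.61 to 22.4 in the 9-month livers. It lies on the opposite strand next to Psrc1, without overlap of their annotated positions. Whether the counting used strand is not stated in the labels, and any part of Celsr2 reads in the Psrc1 values was not tested.

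The other called genes rose less. Ttk stood at 12.2, 22.7 and 32.2 in fructose tumours and 15.1 and 26.4 in cornstarch tumours, against 6.24, 5.60 and 11.3 and 5.79, 3.07 and 3.57 in the fructose and cornstarch livers (log2 difference 1.72, SE 0.36, limma adjusted p = 0.0069). Aurkb stood at 28.7, 36.4 and 49.6 in fructose tumours and 25.2 and 62.9 in cornstarch tumours, against 8.32, 8.96 and 19.03 and 12.5, 13.8 and 3.57 in the fructose and cornstarch livers (log2 difference 1.86, SE 0.41, limma adjusted p = 0.00939). With Psrc1 these were the 3 genes in which all 5 tumours lay above all 6 livers, where 7.96% of all genes tested did so. Plk1 stood at 16.5, 43.7 and 79.2 in fructose tumours and 26.1 and 51.9 in cornstarch tumours and at 3.57 to 42.1 in the 6 livers (log2 difference 2.04, SE 0.53, limma adjusted p = 0.0197). Cdk1 stood at 63.5, 87.4 and 152 and 51.3 and 102 in the fructose and cornstarch tumours and at 16.6 to 57.1 in the livers (log2 difference 1.36, SE 0.37, limma adjusted p = 0.0226). In both genes the lowest tumour lay inside the range of the livers.

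Foxm1 stood at 41.7, 48.5 and 81.8 in fructose tumours and 25.2 and 63.8 in cornstarch tumours and at 7.15 to 39.9 in the livers (log2 difference 1.33, SE 0.39, limma adjusted p = 0.0331). Top2a stood at 137, 178 and 280.1 and 60.6 and 164 in the fructose and cornstarch tumours and at 7.15 to 102 in the livers (log2 difference 1.77, SE 0.54, limma adjusted p = 0.0382), and Ccnb1 at 21.7, 64.7 and 109.6 and 23.6 and 62.9 against 3.12 to 50.3 (log2 difference 2.11, SE 0.66, limma adjusted p = 0.0403). Each of these 3 had at least 1 liver above the lowest tumour. Mki67 was not called, with 205, 323 and 638 in fructose tumours and 90.9 and 397 in cornstarch tumours against 35.7 to 267 in livers (log2 difference 1.43, SE 0.51, limma adjusted p = 0.0665). Birc5 stood at 31.3, 50.97 and 97.4 and 33.7 and 60.1 in the tumours against 15.6 to 54.4 in the livers (log2 difference 0.54, SE 0.38, limma adjusted p = 0.327), and Bub3 at 386, 382 and 471 and 409.8 and 414 against 315 to 398 (log2 difference 0.18, SE 0.11, limma adjusted p = 0.255).

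Within a diet fewer genes passed. Under fructose 1 gene was called, Psrc1 (log2 difference 4.28, SE 0.41, limma adjusted p = 0.00128), where 5.75% of all genes tested were called higher, at a median log2 difference of 1.25 over the 38 genes, and in 8 genes the groups did not overlap (17.2% of all genes tested). Under cornstarch 2 were called, Psrc1 (log2 difference 5.99, SE 0.46, limma adjusted p = 0.000559) and Ttk, where 4.82% were called higher, at a median of 1.28, with 16 genes whose groups did not overlap (21.8% of all genes tested). The log2 differences under fructose and under cornstarch were 1.49 and 1.37 for Mki67, 1.73 and 1.81 for Top2a, 1.08 and 1.59 for Foxm1, and 1.47 and 1.25 for Cdk1. They were 2.05 and 2.18 for Ccnb1, 1.44 and 2.65 for Plk1, 0.94 and 0.15 for Birc5, and 0.14 and 0.23 for Bub3. The SEs over the 37 genes were 0.15 to 1.15 under fructose and 0.16 to 1.28 under cornstarch. Without cornstarch tumour replicate 1 the median under cornstarch was 2.30, and without replicate 2 it was 0.51.

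Of the 11 genes Ttk and Plk1 passed the filter on low values only through the tumours and could be tested only because these were high, and the other 9 passed it without them. The count of 11 moved with single libraries. It was 2 without cornstarch tumour replicate 2 and 17 without cornstarch tumour replicate 1, in fits that leave 1 cornstarch tumour. It was 6 and 5 without fructose tumour replicates 2 and 3, 5 and 5 without 9-month fructose liver replicates 1 and 2, and 6 without cornstarch liver replicate 3. Psrc1 and Ttk were called in each of these fits. Cornstarch tumour replicate 1 was the lowest of the 5 tumours in 25 genes and fructose tumour replicate 1 in 11.

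Summed granulocyte and red cell precursor markers of tumours and 9-month livers overlapped. Granulocyte precursor genes summed to 82.9 to 353 in the tumours and 130.2 to 263 in the 9-month livers, and of 4 tested genes 0 were called higher and 1 lower. Of 10 tested red cell precursor genes 2 were called higher and 3 lower, at summed levels of 1122 to 2602 in tumours and 1783 to 3149 in livers, with Rhd at 0 in all livers of this age. Of 10 tested mature neutrophil genes 1 was called higher, Lcn2, which is also on the list of liver tumour markers and averaged 10932 in tumours and 1955 in livers. The other 9 were not called, and the median log2 difference of the 10 was -0.16. Of macrophage genes 3 of 12 were called lower, of stellate cell genes 4 of 10 higher and 1 lower, and of bile duct genes 2 of 7 higher. Of endothelial genes 1 of 9 was called lower, and of 12 hepatocyte genes 1 was called higher and 3 lower, at a median log2 difference of -0.83. The part of these cells in the tumour values was not tested.

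Other cell cycle genes were called in tumours as well. Of 73 other mitosis genes 17 were called higher and 2 lower, led by Gtse1 (log2 difference 2.50, SE 0.31, limma adjusted p = 0.00061), the condensin subunit gene Smc2 (1.07) and the centriole gene Stil (2.33). Of 28 DNA replication genes 11 were called higher and 1 lower, led by Mcm2 (1.61), Dtl (2.32) and Uhrf1 (2.43). Of 8 G1 cyclins and Cdks 3 were called higher: Ccne1, cyclin E1, averaged 160.1 in tumours and 21.4 in livers (log2 difference 2.74, SE 0.40, limma adjusted p = 0.00127), Ccnd1, cyclin D1, 3512 and 523 (log2 difference 2.47, SE 0.40), and Cdk6 898 and 562. Of 18 inhibitors 7 were called higher and 1 lower. Cdkn2a, which encodes p16 and Arf, averaged 168 in tumours and 13.4 in livers (log2 difference 3.64, SE 0.36, limma adjusted p = 0.000205), Cdkn2b, which encodes p15, 375 and 12.4 (log2 difference 4.99, SE 0.54), and Pkmyt1, the kinase that inhibits Cdk1, 64.8 and 17.9. Cdkn1a was called as well (1184 in tumours, 348 in livers, log2 difference 2.12, SE 0.55, limma adjusted p = 0.019). Of 22 DREAM, MuvB, Rb, E2F and NF-Y regulators 4 were called higher and 2 lower, among them Rbl1 (0.96) and Lin9 (0.66) higher and the atypical repressor E2f8 (-1.47) lower. Of the 15 other genes of the anaphase promoting complex, its core subunits and Fzr1, 2 were called higher and 1 lower, none by more than 1.58-fold.

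Between the diets in tumours 0 of the 37 genes were called, where 0.0% of all genes tested were called and 1178 had an unadjusted p below 0.05. Among the 37 genes 0 had such a p, and edgeR and DESeq2 called 0 of them. Over all genes tested edgeR called 0, and DESeq2 called 40 higher and 79 lower. The median log2 difference was 0.47, with 33 positive and 5 negative differences, and 0 genes whose groups did not overlap. The log2 differences were 0.87 (SE 0.76) for Mki67, 0.92 (SE 0.81) for Top2a, 0.44 (SE 0.59) for Foxm1, 0.38 (SE 0.55) for Cdk1 and 0.47 (SE 0.98) for Ccnb1. They were 0.07 (SE 0.79) for Plk1, 0.25 (SE 0.56) for Birc5, -0.96 (SE 0.46) for Psrc1 and under 0.01 in size for Bub3 (SE 0.16). The limma adjusted p of the 37 genes lay between 0.626 and 0.998 with 3 and 2 tumours, where 10.9% of all genes tested were higher without overlap. The diet effect in tumours minus that in 9-month liver had a median of -0.08, with 16 positive and 22 negative differences and 0 calls, where 0.0% of all genes tested were called and 424 had an unadjusted p below 0.05. Among the 37 genes 1 had such a p, and edgeR and DESeq2 called 0. It was -1.71 (SE 0.62) for Psrc1, -1.21 (SE 1.06) for Plk1, 0.79 (SE 0.75) for Birc5 and -0.51 (SE 0.79) for Foxm1. For Mki67, Cdk1, Top2a, Ccnb1 and Bub3 it was 0.12, 0.22, -0.08, -0.13 and -0.09, with SEs of 1.02, 0.73, 1.08, 1.31 and 0.22.

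Set side by side, the mean of the 5-month fructose livers was above that of the fructose tumours in 29 of the 38 genes. The share of all genes with this order was not computed, so the count has no background beside it. These groups differ in both age and tissue, and no test was made between them.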

How the data were processed

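mRNA libraries of liver and tumour (Illumina TruSeq mRNA kit, per the labels' protocols) were deposited as 1 table of normalised counts, a signal in which the deposited values of each library are reads times 1 factor. The submitters' processing notes name FastQC, Trim Galore, STAR, RSEM, DESeq2 and GRCm38, with no versions or roles. The values are whole multiples of 1 read in 100.0% of entries above 0 (tolerance 0.01 read), which gave the depth of 11232461 to 38377674 reads per library. Gene positions and exon lengths came from GENCODE on GRCm38 and promoters from RefSeq.

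Groups were taken from the labels. Differences in log2(value + 1) were tested with limma 3.58.1 with a mean trend (R 4.3.3), for genes of at least 10 in at least 2 libraries, with Benjamini-Hochberg adjustment over all genes tested and a threshold of 0.05. Liver comparisons were fitted on the 11 livers, and tumour comparisons on the 11 libraries of 9 months. Alternatives included other pseudocounts, filters, scalings and fits, edgeR 4.0.16 and DESeq2 1.42.0 on the recovered reads, and leaving out each library. The scripts were tested on simulated data. Full values are given for Mki67, Top2a, Foxm1, Cdk1, Ccnb1, Plk1, Birc5, Bub3, Psrc1 and the 6 called genes of smallest p, and counts for the rest, with at most 3 called genes per other list and Cdkn1a. The 38 genes, the lists and this rule were chosen with earlier results of these data known.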

Additional observations from a re-analysis of the deposited data

Results flagged for a closer look

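The diet effect on Bub1, a spindle checkpoint kinase, differed between the ages by a test of the difference itself. The diet effect at 9 months minus that at 5 months was -4.669 on the log2 scale (limma adjusted p = 0.0498). Bub1 passed the filter on low values only through the 5-month fructose livers, so that the call rests on the group that let the gene be tested. Bub1 held 59 reads in the 2 fructose livers and 1 read in the 3 cornstarch livers of 5 months. The call was lost in 18 of 24 alternatives, whose values lay between -6.019 and -2.795, and the adjusted p lay between 0.00995 and 0.325 over them. The other 36 tested genes did not pass in that test, although 28 of the 37 had an unadjusted p below 0.05.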

How the results depend on the processing

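Of 3393 values recomputed under alternatives, 3041 kept their direction and their side of the threshold, 112 lost and 27 gained the threshold, 78 changed sign and 135 moved by more than the spread between libraries or, for counts, by over 1.5 times. The median over the 38 genes kept its sign in all alternatives of every comparison except diet in tumours, where leaving out 1 library gave -0.172 to 1.104, and the diet effect between tissues. Between diets in liver at 9 months it was 0.083 to 0.883 with 1 library left out. Where a library left out leaves 1 in its group, that one is assumed to vary like the other groups. Where a count moved with a stricter filter, fewer genes were tested. Elsewhere the cause was not tested. At 5 months 31 of the 37 genes tested were called, against 4 of the 7 tested with a mean of at least 50. Without the 2 Xist-positive libraries the median over the genes was 2.925. Between tumours and livers 11 of the 37 genes tested were called, against 5 of the 12 tested with a mean of at least 50. The count was 6 with no filter on low values, 6 with quantile normalisation, 21 with 1 fit of all 16 libraries and 19 with DESeq2. Within fructose the count of 1 was 3 with 1 fit of all 16 libraries and 4 with DESeq2. Within cornstarch the count of 2 was 1 with a pseudocount of 5, no filter, a mean of at least 50, upper quartile scaling, quantile normalisation and robust moderation, and 4 with DESeq2. Between the ages under fructose the count of 4 was 9 with a pseudocount of 5, 0 with a mean of at least 50, 10 with array weights, 1 with 1 fit of all 16 libraries, 12 with DESeq2 and 0 without the Xist-positive libraries, and over all genes the split of 95 higher and 403 lower was 200 and 421 with quantile normalisation. For the diet effect between ages the count of 1 was 0 with a pseudocount of 0.5, no filter, a mean of at least 50, TMM, upper quartile and quantile scaling, edgeR and without the Xist-positive libraries, 2 with a pseudocount of 5 and 8 with DESeq2.

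Small log2 differences changed sign. Cdk1 between diets at 9 months was -0.035 with quantile normalisation. Bub3 between diets in tumours was 0.016 with TMM, 0.004 with quantile normalisation and 0.007 with DESeq2. Birc5 between tumour and liver under cornstarch was -0.086 with quantile normalisation. Psrc1 between the ages under fructose was 0.048 with TMM, 0.053 with the upper quartile, 0.14 with quantile normalisation, 0.018 with array weights, 0.023 with edgeR and 0.011 with DESeq2. Between the ages under cornstarch, Plk1 was -0.047 and Bub3 0.062 without the Xist-positive libraries. The diet effect between ages of Bub3 was 0.056 with TMM, 0.038 with the upper quartile, 0.031 with quantile normalisation, 0.008 with edgeR and 0.001 with DESeq2. The diet effect between tissues of Top2a was 0.048 with a pseudocount of 5, 0.096 with quantile normalisation, 0.208 with array weights, 0.1 with edgeR and 0.134 with DESeq2, that of Ccnb1 0.091 with quantile normalisation, and that of Mki67 -0.201 with edgeR and -0.159 with DESeq2.

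Leaving out each library in turn gave counts of called genes of 8 to 33 at 5 months, 2 to 17 between tumours and livers, 1 to 3 within fructose, 1 to 2 within cornstarch, 0 to 10 between the ages under fructose and 0 to 3 for the diet effect between ages. It gave log2 differences of -0.033 to 0.239 for Bub3 at 5 months, and at 9 months of -0.213 to 0.647 for Cdk1 and -0.371 to 1.448 for Ccnb1. Between diets in tumours they were -0.1 to 0.05 for Bub3, -0.436 to 0.661 for Plk1, -0.219 to 1.16 for Ccnb1, -0.168 to 0.663 for Birc5, -0.189 to 1.927 for Mki67, -0.211 to 1.093 for Foxm1 and -0.108 to 0.869 for Cdk1. Between tumour and liver under cornstarch they were -0.264 to 0.554 for Birc5 and 0.506 to 2.304 for the median of the 38 genes. Between the ages they were -0.356 to 0.333 for Psrc1 under fructose, and under cornstarch -0.365 to 1.15 for Top2a, -0.039 to 0.4 for Cdk1, -0.21 to 0.062 for Bub3 and -0.047 to 1.421 for Plk1. The diet effect between ages of Bub3 was -0.156 to 0.116. The diet effect between tissues was -0.937 to 1.179 for Mki67, -0.27 to 0.707 for Cdk1, -0.789 to 0.833 for Top2a, -0.977 to 0.842 for Ccnb1, -1.162 to 0.141 for Foxm1 and -0.873 to 0.604 for the median. No paired analysis was possible because the labels carry no replicate numbers. In the 5-month cornstarch livers 5, 3 and 0 of the 38 genes were at 0 in replicates 1, 2 and 3, at depths of 19788145, 17630440 and 13694759 reads. Values at 0 limit how well the size of those differences is known, and the part of depth was not tested.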
